A study of Mus musculus with 46 samples.

Results

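The cytochrome P450 genes of families 1 to 4 were followed in the liver, kidney and cerebellum of mice that differ in the p150 isoform of ADAR1. Members were protein-coding genes whose symbol is Cyp, a family digit from 1 to 4, a subfamily letter and a number, with at least 20 counts summed over liver or over kidney. Of 53465 gene entries, 75 carried such a symbol and 60 were members, in 18 subfamilies. The minimum was met in liver by 57 members and in kidney by 39, with 36 in both. The members nearest above it were Cyp2j7 at 24 and Cyp2j13 at 36 counts, and the genes nearest below it were Cyp2j8 at 15 and Cyp2d11 at 16. Among the 15 symbols under the minimum, Cyp2j12 and Cyp4x1 held 853 and 421 counts in cerebellum, which the choice of members did not use. A further 7 protein-coding symbols of these families end in a letter or suffix (such as Cyp4a12b and Cyp3a41a) and are no members.

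The mice were C57BL/6 at postnatal day 23, and all of them carried P195A, a substitution in the part of ADAR1 that binds Z-form nucleic acids and that the interferon-inducible p150 isoform holds. The labels name the 2 genotypes P195A_p150neg (p150neg below, 8 animals) and P195A_p150pos (p150pos, 8 animals), so the controls carried P195A too. Tissue was frozen in TRIzol, the RNA was treated with DNase, and libraries were made with the Nextera XT kit. The 41 libraries used here came from 7 p150neg and 7 p150pos livers, 5 and 7 kidneys, and 8 and 7 cerebella, and 5 further libraries were left out because they held RNA of other organs. Library totals were 0.53 to 4.3 M counts in liver (M, 1000000), 0.27 to 4.88 M in kidney and 0.94 to 6.24 M in cerebellum. Levels are CPM, counts per 1000000 counts of the library. Albumin (Alb) ran from 17320 to 44970 CPM in the livers used and reached at most 404 CPM in the kidneys. The labels give neither sex nor litter, so p-values measure the spread between these animals.

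P450 enzymes hold a haem group and insert an oxygen atom into their substrate, with electrons passed on by P450 oxidoreductase or cytochrome b5. In liver, families 1 to 3 oxidise drugs, pollutants, steroids and arachidonic acid, and family 4 hydroxylates the far end of fatty acids and leukotrienes. Their genes lie in clusters of close copies, many are expressed around the central vein, and receptors such as AHR, CAR (Nr1i3), PXR (Nr1i2) and PPARA, together with HNF4A and growth hormone, are known to set their level.

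The sequences shown here are promoter stretches of a Cyp2c group on chromosome 19, because these 4 genes are close copies that gave unlike values in liver. RefSeq (GRCm38.p6) held promoters of 300 bases, from 250 before to 50 after the start site, for 49 of the 60 members. The windows of 120 bases below are on the minus strand at chr19:39886785-39886904 (Cyp2c69), chr19:39812800-39812919 (Cyp2c40), chr19:39741119-39741238 (Cyp2c68) and chr19:39649108-39649227 (Cyp2c67), read 5′ to 3′, and the capitals mark the motif CAAAGTCCA, which holds AGTCCA, a core of known HNF4 sites.
Cyp2c69: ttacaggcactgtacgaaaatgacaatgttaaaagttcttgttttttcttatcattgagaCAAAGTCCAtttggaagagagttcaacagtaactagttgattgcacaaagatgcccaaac
Cyp2c40: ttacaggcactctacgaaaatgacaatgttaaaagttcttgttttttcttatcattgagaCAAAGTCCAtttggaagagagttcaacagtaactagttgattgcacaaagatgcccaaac
Cyp2c68: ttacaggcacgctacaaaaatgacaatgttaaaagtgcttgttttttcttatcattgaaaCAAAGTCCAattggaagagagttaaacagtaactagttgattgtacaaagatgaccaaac
Cyp2c67: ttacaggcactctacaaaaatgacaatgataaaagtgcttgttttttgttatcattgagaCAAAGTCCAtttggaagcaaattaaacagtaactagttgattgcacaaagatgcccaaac
Within the window, Cyp2c69 and Cyp2c40 differ at 1 position (G12C, counted from 1 at the 5′ end, with the base of Cyp2c69 first). Cyp2c68 and Cyp2c67 each differ from Cyp2c69 at 9 positions. The windows were matched on the motif and lie at unlike distances from the annotated start sites. The motif begins at -75 in Cyp2c69, -45 in Cyp2c40, -77 in Cyp2c68 and -125 in Cyp2c67. Over all aligned promoter bases, identity to Cyp2c69 was 98.9% for Cyp2c40, 93.6% for Cyp2c68 and 92.8% for Cyp2c67. The coding sequences of Cyp2c40 and Cyp2c69 are 97.9% identical, and those of Cyp2c67 and Cyp2c69 97.7%. CAAAGTCCA was looked for on both strands after these sequences had been seen: it stood in 7 of 55 member promoters (12.7%) and in 0.475% of all 32851 promoters of that length. The 7 include the 4 promoters shown here, from which the motif was read, beside those of Cyp2c70, Cyp3a11 and Cyp3a16. No excess among the members can therefore be read from these shares.

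In liver, 47 members were tested, of which 17 were lower in p150neg mice, 1 was higher and 29 were not called (edgeR's quasi-likelihood test at an adjusted p under 0.05, Benjamini-Hochberg over all genes). Of the 9843 genes tested in liver, 4.76% were called lower and 6.94% higher, against 36.2% and 2.13% of the members. The median log2 fold change, p150neg over p150pos, was -0.58 over the tested members and -0.04 over all genes, and 14 of the 17 fell by at least 1. Summed over all members, P450 transcripts made up 1.36 to 2.32% of a p150neg liver library (median 1.97%) and 1.98 to 3.24% of a p150pos library (median 2.99%). In 8 members every p150neg library was below every p150pos library (Cyp1a2, Cyp2c40, Cyp2c69, Cyp2d10, Cyp2g1, Cyp2j5, Cyp2r1 and Cyp4f14), which held for 1.65% of all genes, and in 0 members every p150neg library was above. The plot of fold changes by subfamily shows the spread: the lower calls come from 12 subfamilies, and close relatives lie far apart. Cyp2g1, among the lower and the non-overlapping members, met the count minimum only through the p150pos livers. In bulk tissue, fewer cells of a type and less RNA per cell cannot be told apart.

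**Figure D1:**
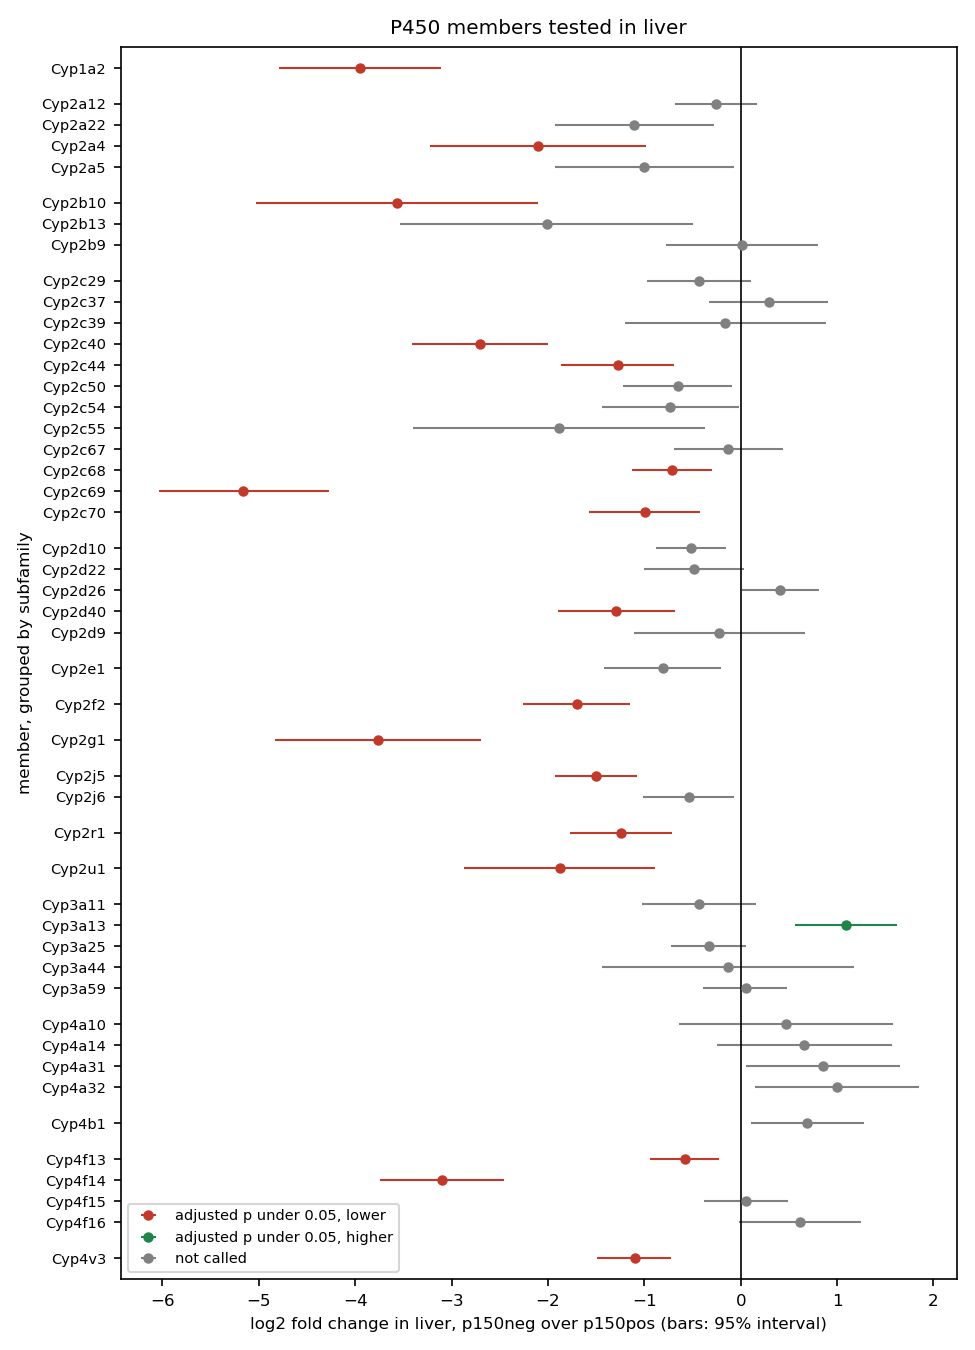
Log2 fold change in liver (x axis, p150neg over p150pos, bars for the 95% interval) of the 47 tested members (y axis, by subfamily), coloured by call. The 17 lower members run from Cyp2c69 at -5.16 to Cyp4f13 at -0.58, and Cyp3a13 at 1.09 is the higher one.

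In family 1, Cyp1a2, which oxidises caffeine and aromatic amines and is a classic AHR target, fell. It stood at 9.63, 33.8 and 103.5 CPM (lowest, median and highest of 7) in p150neg livers and at 206.5, 600.3 and 1005 CPM in p150pos livers. The groups did not overlap, although animal 9 was far above the other p150neg animals. Animal 15 was the lowest p150pos animal, with the next at 513 CPM. The log2 fold change was -3.95 ± 0.40 (SE; adjusted p = 1.97e-06), a 15.5-fold difference. Cyp1a1, its neighbour on chromosome 9 and also an AHR target, had too few counts in liver to be tested: at most 0.822 CPM in p150neg and 2.92 CPM in p150pos livers. Cyp1b1, which is mostly expressed outside the liver, reached 3.76 CPM at most and was not tested there either.

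Among the 4 Cyp2a genes, 1 was called. Cyp2a4, which hydroxylates testosterone, stood at 23.3, 28.2 and 122.7 CPM in p150neg and at 32.0, 135, and 613.5 CPM in p150pos livers. The ranges overlapped, and the log2 fold change was -2.10 ± 0.54 (adjusted p = 0.0122). Its coding sequence is 98.5% identical to that of Cyp2a5, the coumarin hydroxylase, so reads could be assigned to either gene and both values are uncertain. Cyp2a5 was not called at -1.0 ± 0.44 (adjusted p = 0.174), but was with the identifier prefix as a block (-1.12, adjusted p = 0.0219). This prefix (P094, AC, AA or AS) stands in the animals' names, and the labels do not say what it marks. Cyp2a22 was at 121.3 ± 84.2 against 270.2 ± 153.7 CPM and was not called at -1.11 ± 0.39 (adjusted p = 0.0787). It was called lower by DESeq2 (adjusted p = 0.0363), without a filter on low counts (0.0162), with Xist as a covariate (0.0339) and without p150pos animal 13 (0.0224) or p150neg animal 14 (0.0283). Cyp2a12, the most abundant Cyp2a gene per kb, stood at 953.8 ± 118.2 CPM (SD, n = 7) in p150neg and 1186 ± 355 CPM (n = 7) in p150pos livers and was not called (95% interval of the log2 fold change -0.68 to 0.17).

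Cyp2b10, the gene that phenobarbital induces through CAR, was low in p150neg livers at 0, 1.37 and 10.3 CPM, against 3.09, 42.2 and 99.0 CPM in p150pos livers. The ranges overlapped between the highest p150neg and the lowest p150pos animals, and 2 of 7 p150neg libraries held no count. Its log2 fold change was -3.57 ± 0.70 (adjusted p = 0.00149). Cyp2b13 was not called at -2.01 ± 0.73 (adjusted p = 0.0841), and it was called without a filter on low counts (adjusted p = 0.00841), without p150pos animal 12 (-2.23, adjusted p = 0.0322) and without p150pos animal 13 (-2.26, adjusted p = 0.0149). Cyp2b9, the Cyp2b gene with the highest level per kb, stood at 349.6 ± 179.1 against 364.3 ± 218.2 CPM, and the 95% interval of its log2 fold change ran from -0.78 to 0.80.

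Of 12 tested Cyp2c genes, 5 fell and 7 were not called. Cyp2c69 had the smallest adjusted p of all members. It stood at 1.61, 9.12 and 24.3 CPM in p150neg and at 190.2, 408 and 593.4 CPM in p150pos livers. No libraries overlapped, and the log2 fold change of -5.16 ± 0.42 (adjusted p = 2.17e-07) is a 35.7-fold difference. Cyp2c40, which hydroxylates arachidonic acid and whose promoter window differs from that of Cyp2c69 at 1 base, stood at 15.2, 37.3 and 55.7 against 127.5, 174.5 and 419.5 CPM. The groups were apart here too, and the log2 fold change was -2.71 ± 0.34 (adjusted p = 1.72e-05).

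The other 2 genes of that group moved less. Cyp2c68 ran from 287.4 to 509.4 CPM in p150neg and from 483.8 to 786.1 CPM in p150pos livers, with a log2 fold change of -0.71 ± 0.20 (adjusted p = 0.0209). That call was lost without p150neg animal 3 (adjusted p = 0.0501) and without p150neg animal 8 (adjusted p = 0.0525). Cyp2c67 ran from 28.1 to 63.9 against 36.9 to 92.2 CPM and was not called at -0.13 ± 0.27 (95% interval -0.69 to 0.44). Reads that fit several of these genes may have been dropped or misplaced in counting, so the single values are uncertain. What shared reads can do was not tested.

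**Figure D2:**
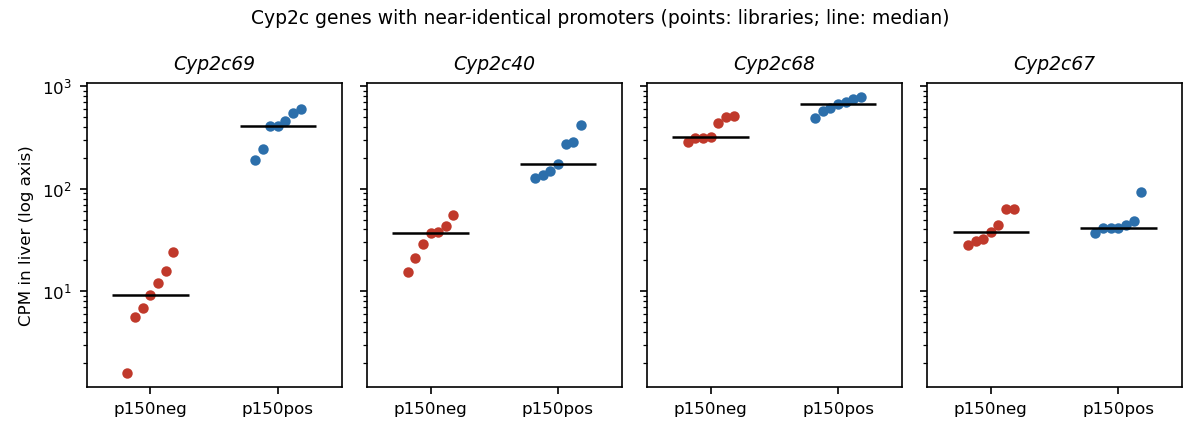
Level in liver (y axis, CPM, log scale) of Cyp2c69, Cyp2c40, Cyp2c68 and Cyp2c67 in each p150neg (red) and p150pos (blue) library, with the median as a line. The p150pos medians run from 40.9 CPM (Cyp2c67) to 675.4 CPM (Cyp2c68), and the distance between the groups narrows from Cyp2c69 to Cyp2c67.

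Outside that group, Cyp2c44, an epoxygenase of arachidonic acid, fell by 1.27 ± 0.28 on the log2 scale (adjusted p = 0.00391), with 101.6 ± 33.6 CPM in p150neg and 251.5 ± 100.6 CPM in p150pos livers (SD, n = 7 each). Cyp2c70, which makes the muricholic acids of mouse bile, was at 721.3 ± 426.8 against 1445 ± 245 CPM. It was called at -0.99 ± 0.28 (adjusted p = 0.0217), and this call was lost without p150neg animal 3 (adjusted p = 0.0508). Its p150neg libraries split by the identifier prefix: animals 8, 9 and 11, with prefix AC, stood at 992.3, 1498 and 889.4 CPM, and animals 1, 3, 14 and 16, with other prefixes, at 312.8, 455.1, 405.4 and 496 CPM. The p150pos animals with prefix AC (7, 10 and 12) were at 1356, 1318 and 1461 CPM, inside the range of the other p150pos animals (1002 to 1686 CPM). Cyp2c29, another abundant epoxygenase, was not called at -0.43 ± 0.26 (adjusted p = 0.354). Cyp2c37, Cyp2c50 and Cyp2c54, whose coding sequences are at least 95.1% identical in pairs, gave 0.29, -0.65 and -0.73, none of them called. Without p150neg animal 1, Cyp2c50 (-0.90, adjusted p = 0.0229) and Cyp2c54 (-1.06, adjusted p = 0.0371) were called, and Cyp2c50 also with the prefix block (-0.68, adjusted p = 0.0492). Cyp2c55 gave -1.89 ± 0.73 and was not called (adjusted p = 0.109), but was called with the prefix block (-2.19, adjusted p = 0.0155), without a filter (0.0182), without p150neg animal 9 (-2.65, 0.0257) and without p150pos animal 13 (-2.10, 0.0207). Its p150neg animals with prefix AC were at 20.9 to 50.1 CPM and the other 4 at 0 to 3.76 CPM. Cyp2c39 was low in both groups and gave -0.16 ± 0.50.

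Of 5 tested Cyp2d genes, Cyp2d40 fell. It stood at 5.58, 13.0 and 30.1 CPM in p150neg and at 25.1, 39.3 and 56.0 CPM in p150pos livers, ranges that overlap by a few CPM. The log2 fold change was -1.29 ± 0.29 (adjusted p = 0.00481). Cyp2d10, with the highest Cyp2d level per kb in p150pos livers, showed a small difference without overlap: at most 752.9 CPM in p150neg and at least 808.8 CPM in p150pos livers, with -0.52 ± 0.18 (adjusted p = 0.0658). It was called without p150neg animal 1 (adjusted p = 0.0252), p150pos animal 13 (0.0458) or p150neg animal 16 (0.0346), and by DESeq2 (0.0184), voom (0.0396) and the prefix block (0.0435). Cyp2d26 (0.41 ± 0.19), Cyp2d22 (-0.48 ± 0.25) and Cyp2d9 (-0.22 ± 0.43) were not called.

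Cyp2e1, which oxidises ethanol and paracetamol, had the highest level per kb of all members in liver, although Cyp3a11 was higher in CPM. Cyp2e1 was not called in the test of all 14 livers. It stood at 1415, 2432 and 3563 CPM in p150neg and at 2018, 3992 and 6945 CPM in p150pos livers. The ranges overlapped, and the log2 fold change was -0.81 ± 0.29 (95% interval -1.42 to -0.20, adjusted p = 0.0812). Leaving out p150neg animal 1 (adjusted p = 0.0152), p150pos animal 12 (0.0471) or p150pos animal 15 (0.0357) gave a call, as did DESeq2 (0.0422) and the prefix block (0.0190).

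The single-gene subfamilies Cyp2f, Cyp2g, Cyp2r and Cyp2u all fell. Cyp2f2, known for activating naphthalene and periportal in liver, stood at 153.1, 279.9 and 535.1 against 517.8, 893.8 and 1694 CPM. Only the highest p150neg animal reached into the p150pos range, and the log2 fold change was -1.70 ± 0.27 (adjusted p = 0.000172). Cyp2g1, best known from olfactory mucosa, was at 0, 0.685 and 1.64 CPM against 5.02, 8.83 and 13.2 CPM, with no overlap and -3.76 ± 0.51 (adjusted p = 3.94e-05). No p150neg library held more than 4 counts of Cyp2g1 and 3 held none, so its fold change rests on few reads. Cyp2g1 met the count minimum and the filter on low counts only through the p150pos livers, where it was high. Its call and its lack of overlap are therefore a description. Cyp2r1, a vitamin D hydroxylase, stood at 5.81, 10.1 and 16.5 against 21.7, 26.5 and 46.8 CPM, without overlap and at -1.24 ± 0.25 (adjusted p = 0.00206). Cyp2u1, a hydroxylase of long-chain fatty acids, was at 1.06, 2.06 and 4.36 against 1.63, 8.35 and 15.8 CPM. Its p150pos animal 4 lay inside the p150neg range, and the log2 fold change was -1.88 ± 0.47 (adjusted p = 0.0110).

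Cyp2j5, an arachidonic acid epoxygenase of liver and kidney, stood at 110.5, 204.8 and 320.4 CPM in p150neg and at 407.9, 641.6 and 719.5 CPM in p150pos livers. The groups were apart, with a log2 fold change of -1.5 ± 0.20 (adjusted p = 3.34e-05). Cyp2j6 was not called at -0.54 ± 0.23 (adjusted p = 0.145). Cyp2j7, Cyp2j11 and Cyp2j13 had 0 counts in the livers used.

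The Cyp3a genes, the main drug-oxidising P450 genes, were the subfamily with the higher call. Cyp3a13, a Cyp3a gene also expressed in intestine, stood at 407.7, 632.6 and 1233 CPM in p150neg and at 283.1, 363.8 and 455.8 CPM in p150pos livers. The p150neg animal 16 was the one inside the p150pos range, and the log2 fold change was 1.09 ± 0.25 (adjusted p = 0.00647). The remaining 4 tested Cyp3a genes were not called. Cyp3a11, the mouse counterpart of human CYP3A4 and a PXR target, was at 4005 ± 1406 against 5602 ± 2143 CPM (n = 7 each), with a 95% interval of -1.02 to 0.16. The others were Cyp3a25 at -0.33 ± 0.19, Cyp3a44 at -0.13 ± 0.63 and Cyp3a59 at 0.05 ± 0.21, and Cyp3a25 and Cyp3a59 are 97.5% identical in coding sequence.

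The 4 Cyp4a genes, fatty acid hydroxylases and textbook PPARA targets, all had fold changes above 0 and none was called. Cyp4a10 stood at 115.1, 591.8 and 1866 CPM in p150neg livers and at 270.3, 662.7 and 917.7 CPM in p150pos livers. The p150neg animals were more spread than the p150pos animals on both sides: animals 1, 3 and 14 were above every p150pos animal, and animals 8, 9 and 11, the p150neg animals with prefix AC, were below every p150pos animal. Cyp4a14 showed a similar split among the p150neg animals, with 317.6, 243.5 and 509.2 CPM in those 3 and 745.8 to 2101 CPM in the other 4. Animal 11 lay inside the p150pos range of Cyp4a14 (404.9 to 1369 CPM). The p150pos animals with prefix AC were at 662.7 to 917.7 CPM for Cyp4a10. The log2 fold change was 0.47 ± 0.53 (adjusted p = 0.668). Cyp4a14 gave 0.66 ± 0.43, Cyp4a31 0.85 ± 0.38 and Cyp4a32 1.00 ± 0.41 (adjusted p = 0.132). Coding sequences of Cyp4a10, Cyp4a31 and Cyp4a32 are 96.0 to 97.2% identical, so these values may share reads.

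In the rest of family 4, Cyp4f14, which hydroxylates leukotriene B4 and vitamin E, fell. It stood at 15.0, 37.0 and 100.7 CPM in p150neg and at 295, 402.6 and 439.3 CPM in p150pos livers. The groups did not overlap, and the log2 fold change was -3.10 ± 0.31 (adjusted p = 1.45e-06), an 8.59-fold difference. Cyp4v3, the counterpart of the gene mutated in Bietti crystalline dystrophy, ran from 71.4 over 97.5 to 131.2 CPM against 123.8, 212.8 and 302.5 CPM, with -1.10 ± 0.18 (adjusted p = 0.000328). A p150pos animal lay inside the p150neg range of Cyp4v3.

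Cyp4f13 had the smallest fold change of the called members: 40.0, 42.3 and 45.6 CPM in p150neg against 45.4, 65.2 and 86.8 CPM in p150pos livers. The p150neg animals were within 6 CPM of each other, and the log2 fold change was -0.58 ± 0.17 (adjusted p = 0.0277). This call was lost without p150neg animals 3 (adjusted p = 0.0594), 8 (0.0637) or 14 (0.0636) and without p150pos animals 7 (0.0526) or 10 (0.0700). Cyp4f15 was not called at 0.05 ± 0.21, and neither were Cyp4f16 (0.62 ± 0.30, called without p150pos animal 13 at 0.88, adjusted p = 0.0278) and Cyp4b1 (0.69 ± 0.28, adjusted p = 0.126). Cyp4f18, a leukotriene hydroxylase of neutrophils, was below the filter on low counts and reached 7.88 CPM in p150neg and 1.52 CPM in p150pos livers. Without that filter it was called higher at 2.86 (adjusted p = 0.0102), as were 893 of all 23749 genes. Neutrophil markers were also higher in these livers, and their part in the Cyp4f18 value was not tested.

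**Figure D3:**
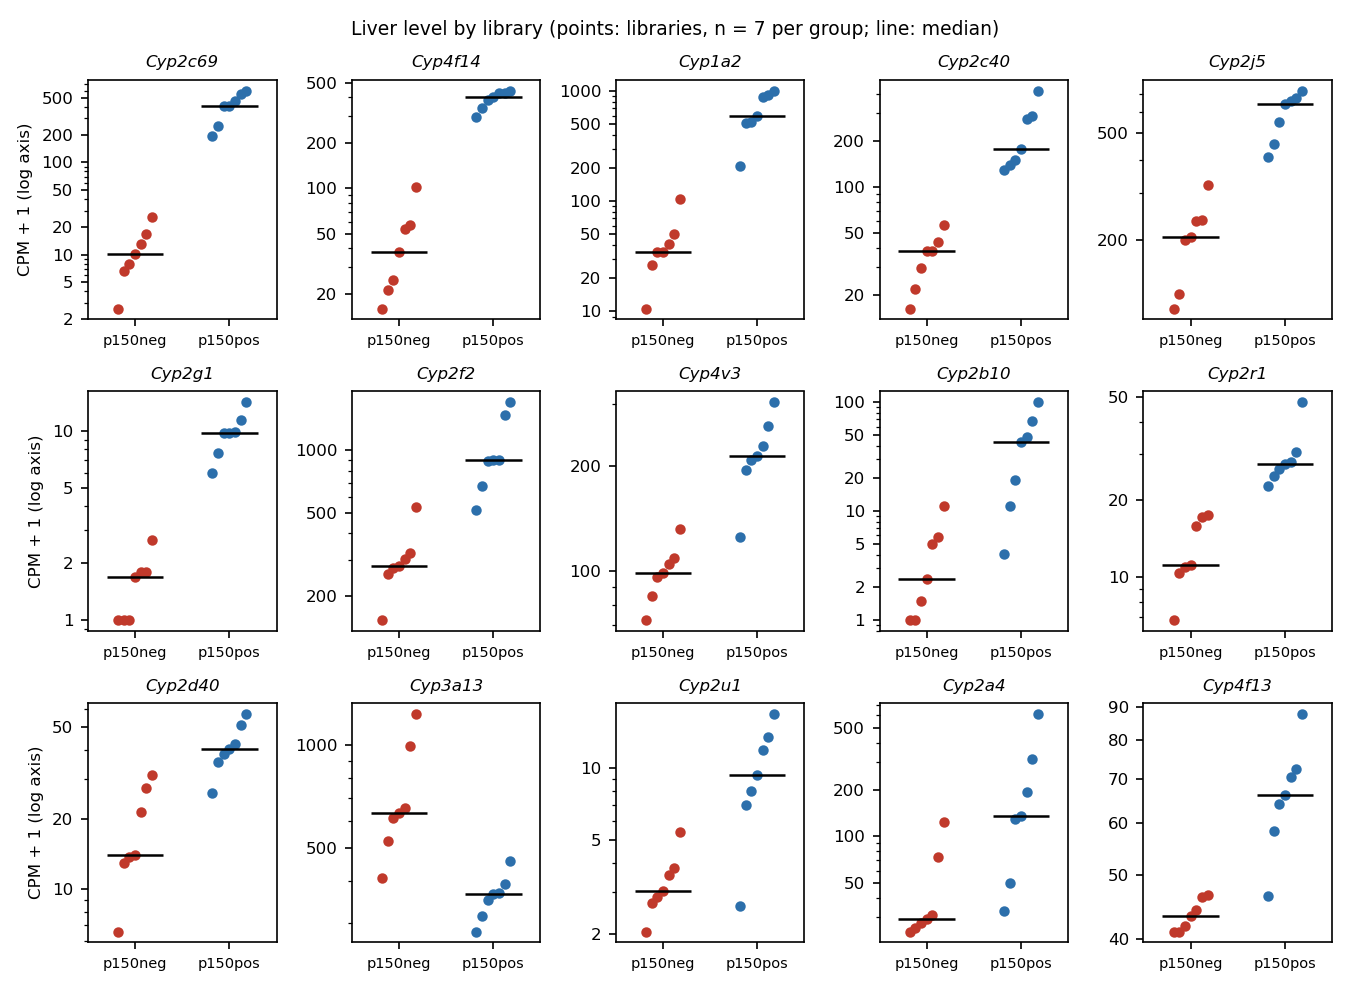
Level in liver (y axis, CPM plus 1, log scale) in each p150neg (red) and p150pos (blue) library for the 15 called members with the smallest adjusted p, at most 2 per subfamily, with the median as a line. Cyp2c69, Cyp4f14, Cyp1a2, Cyp2c40, Cyp2j5, Cyp2g1 and Cyp2r1 show no overlap, and Cyp3a13 is the one that lies higher in p150neg.

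Genes that serve or control the P450 enzymes mostly did not pass the test in liver. Of 20 genes for electron transfer and haem supply, 2 were lower and 2 higher, with a median log2 fold change of -0.10. Over all genes tested in liver, 4.76% were lower and 6.94% higher, and the list is too short to read an excess from. Cyb5b, a cytochrome b5 of the outer mitochondrial membrane, fell by 1.74 ± 0.20 on the log2 scale (adjusted p = 7.92e-06) and Cyb5r3, a cytochrome b5 reductase, by 1.03 ± 0.29 (adjusted p = 0.0209). Hmox1, which breaks haem down, rose by 2.83 ± 0.38 and Hpx, the haem carrier of plasma, by 1.66 ± 0.25. Por, the oxidoreductase that feeds electrons to microsomal P450 enzymes, was at 777 ± 342 against 620.8 ± 451.1 CPM (log2 fold change 0.42 ± 0.44, not called), and Cyb5a gave 0.02 ± 0.20.

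Of 36 tested receptors and transcription factors that regulate P450 genes, 3 were lower and 4 higher, with a median of -0.21. Against the shares over all genes (4.76% and 6.94%), no excess can be read from so few calls. The receptors of growth hormone (Ghr, -1.55 ± 0.16) and prolactin (Prlr, -1.67 ± 0.21) and the factor Cebpa (-1.19 ± 0.27) fell. Cebpd (1.90 ± 0.27), Tiparp (1.74 ± 0.36), which AHR induces and which restrains it, Ppargc1a (0.92 ± 0.27) and Stat3 (0.71 ± 0.16) rose. The receptors themselves were not called: Ahr gave 0.19 ± 0.24, Nr1i2 0.22 ± 0.28, Nr1i3 0.27 ± 0.29, Ppara -0.33 ± 0.18 and Hnf4a -0.18 ± 0.21. Of 13 tested PPARA targets outside the P450 genes, Vnn1 (1.51 ± 0.35) and Acot2 (2.36 ± 0.47) rose and none fell, with a median of 0.29. Of 8 tested P450 genes outside families 1 to 4, Cyp51 of cholesterol synthesis fell by 4.40 ± 0.48 on the log2 scale (adjusted p = 3.89e-06), and Cyp7a1, the rate-limiting enzyme of bile acid synthesis, was not called at -1.35 ± 0.49 (adjusted p = 0.0878).

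Cell markers moved beside the P450 genes in liver, where 4.76% of all tested genes were lower and 6.94% higher. Of 7 tested markers of hepatocytes around the central vein that are no P450 genes, 5 fell (Glul, Slc1a2, Lect2, Gulo and Rgn), and the markers' summed level ran from 976.9 to 1717 CPM in p150neg and from 2596 to 3538 CPM in p150pos livers. Of 8 periportal markers, Ass1 fell and Hsd17b13 rose, and their sums overlapped (5414 to 10980 against 4545 to 8660 CPM). Of 6 general hepatocyte markers, Serpina1c and Ttr fell, with sums of 36830 to 72440 against 51880 to 83020 CPM. All 7 tested neutrophil markers rose, with sums of 428 to 1644 against 26.8 to 174.4 CPM, and so did 8 of 9 macrophage and monocyte markers, with sums of 989.2 to 2555 against 335.8 to 747.4 CPM. Every neutrophil marker had counts in both groups. Their part in the P450 differences was not tested.

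A list of 10 members picked by name was set against Xist, the RNA of the inactive X chromosome. In p150pos livers, Cyp2a4, Cyp2b13, Cyp2b9 and Cyp2d9 separated with it. Cyp1a2, Cyp2b10, Cyp2c40, Cyp2c69, Cyp3a16 and Cyp3a44 overlapped. The share of all genes that separate in this way was not counted, so no excess among the members can be read from this list. Xist exceeded the Y-linked Ddx3y in 4 of 7 p150neg and 3 of 7 p150pos livers. In p150pos livers, Cyp2b13 stood at 117.3 to 238.4 CPM in the Xist libraries and at 1.16 to 56.9 CPM in the rest, Cyp2a4 at 192.4 to 613.5 against 32.0 to 135 CPM, and Cyp2b9 at 568.3 to 591.4 against 93.8 to 365.8 CPM. Cyp2d9, known as a male-predominant gene, lay the other way, at 47.5 to 123.1 against 209.1 to 515.3 CPM. In p150neg livers these ranges overlapped for Cyp2b13 (6.17 to 33.8 against 8.42 to 21.4 CPM) and Cyp2a4 (26.6 to 122.7 against 23.3 to 72.3 CPM), while Cyp2d9 stayed lower in the Xist libraries (136 to 185 against 193.7 to 341.1 CPM). These are descriptions of 3 to 4 libraries each. With Xist as a covariate, 18 members were called lower in liver, as were 422 of all 9843 genes tested.

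In kidney, 0 of the 21 tested members were called by edgeR (smallest adjusted p 0.158), where 0.694% of all 11957 genes were. An unadjusted p under 0.05 in this test was reached by 4 members and by 979 of all genes. The 4 were Cyp2a5, Cyp2j5 and Cyp2u1, which were lower, and Cyp2d22, which was higher (1.01 ± 0.44, adjusted p = 0.527). DESeq2 called 1 of the tested members, Cyp2a5. The members' median log2 fold change was 0.10, against -0.07 over all genes. The kidney groups held 5 and 7 libraries, and the p150neg library of animal 3 had 0.27 M counts.

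Cyp2j5, with the highest level per kb in kidney, stood at 1238, 1319, 1217, 1214 and 1285 CPM in the 5 p150neg kidneys, and at 1252, 1608 and 2178 CPM (lowest, median, highest of 7) in p150pos kidneys. The p150neg animals were close together at the lower edge of the p150pos range, and the log2 fold change was -0.53 ± 0.16 (adjusted p = 0.220). Its relative Cyp2j11 had a 95% interval from -0.70 to 0.08. Cyp4a10 stood at 3063, 1657, 827, 845.6 and 1831 CPM in p150neg and at 689.4, 912.8 and 1758 CPM in p150pos kidneys, and Cyp4a14 at 3420, 1025, 924, 597 and 1830 against 514.3, 751.6 and 1622 CPM. Animal 1 was the highest for both, as it was for Cyp4a10 and Cyp4a14 in liver. The log2 fold changes were 0.62 ± 0.32 and 0.78 ± 0.38, neither called. Of the 29 regulators tested in kidney, Prlr fell (-1.08) and Stat3 rose (0.93), and Cyp24a1, which breaks down vitamin D, rose by 2.11 ± 0.34. Over all genes tested in kidney, 0.309% were lower and 0.385% higher.

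Cyp2a5 stood at 2.57, 0, 3.50, 3.56 and 6.15 CPM in p150neg kidneys and at 3.28, 10.7 and 32.3 CPM in p150pos kidneys. Its log2 fold change was -2.13 ± 0.61 (95% interval -3.42 to -0.84, adjusted p = 0.158). Cyp2u1 was at 1.14, 0, 3.85, 4.01 and 2.87 against 4.22, 5.71 and 22.3 CPM, without overlap and with -1.59 ± 0.59 (adjusted p = 0.363). All p150neg libraries lay below all p150pos libraries for 1.02% of the genes tested in kidney. Cyp2d26 (0.59 ± 0.30), Cyp4a31 (0.10 ± 0.34), Cyp4b1 (-0.90 ± 0.49, but -0.21 without p150pos animal 13), Cyp1b1 (0.26 ± 0.48) and Cyp2s1 (0.56 ± 0.42), the kidney genes with high levels in their subfamilies, were not called. For Cyp4b1, p150pos animal 13 stood at 336.5 CPM and the other p150pos kidneys at 45.0 to 108.6 CPM, and with all labelled libraries the sign turned (0.83). Cyp4a12b, no member by its suffix, gave 2.58 ± 0.70 (adjusted p = 0.127). Of 10 proximal tubule markers, 3 fell (Slc5a2, Slc22a12 and Slc22a7), where 0.309% of all genes did. The markers' sums were 2975 to 4590 CPM in p150neg and 4427 to 7396 CPM in p150pos kidneys. Their part in the kidney values was not tested.

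The difference between the genotype effects in liver and kidney was tested as an interaction. Of 56 members tested, 1 was called, against 1.5% of all 12970 genes. Only 21 members had passed the filter on low counts in the kidney fit. For members nearly absent from kidney the interaction test could decide little, because its error was wide (Cyp1a2, -0.84 ± 1.59). The called member was Cyp4v3. Its effect was lower in liver than in kidney by 2.16 ± 0.50 on the log2 scale (liver minus kidney -2.16, adjusted p = 0.0149). In kidney it stood at 14.3, 0, 19.3, 13.8 and 13.9 CPM in p150neg and at 0, 5.05 and 11.9 CPM in p150pos animals, a log2 fold change of 1.03 ± 0.63. Most animals gave both tissues. With the animal as a replicate block the call was lost (-2.03, adjusted p = 0.121). That fit also dropped the animals with only 1 of the 2 tissues in use, so blocking and fewer libraries cannot be told apart. The next members were Cyp2j5 (-0.97 ± 0.29, adjusted p = 0.106), Cyp2d22 (-1.5 ± 0.49, 0.155), Cyp4b1 (1.59 ± 0.57, 0.222) and Cyp4f13 (-1.25 ± 0.49, 0.313), none called. The Cyp4b1 interaction was not refitted without the kidney of p150pos animal 13. The plot of both tissues side by side covers the 15 members tested in each.

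**Figure D4:**
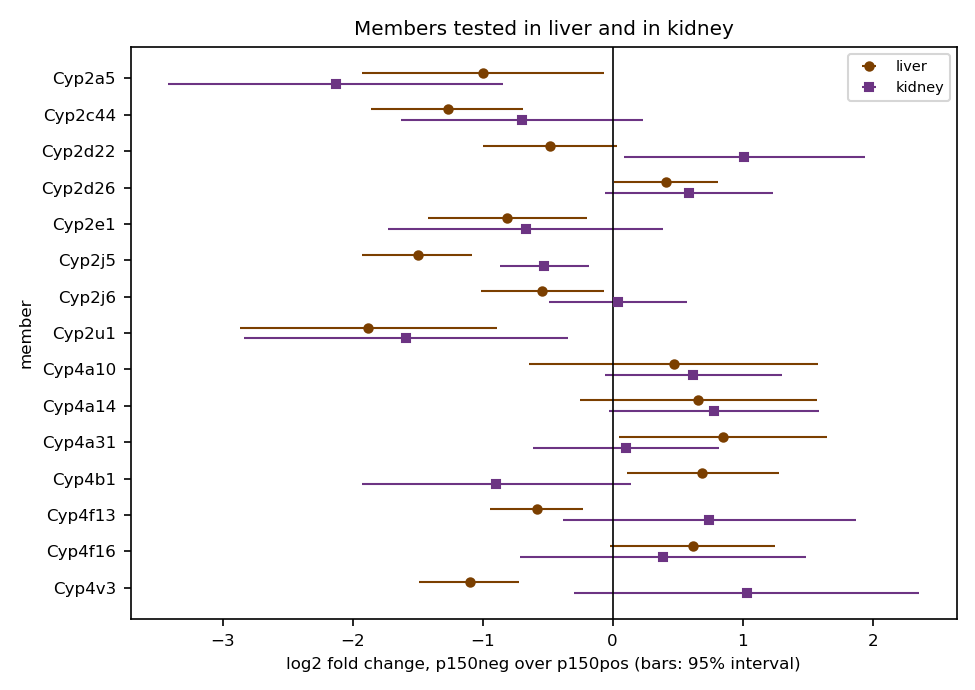
Log2 fold change, p150neg over p150pos (x axis, bars for the 95% interval), of the 15 members tested in liver (circles) and in kidney (squares). Cyp4v3 lies at -1.10 in liver and 1.03 in kidney, and the 3 Cyp4a genes lie above 0 in both.

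In cerebellum, 0 of the 11 tested members were called by edgeR and 0 by DESeq2, where edgeR called 0.997% of all 13146 genes. An unadjusted p under 0.05 in the edgeR test was reached by 1 member, Cyp1b1, and by 1258 of all genes. Cyp2j9, the member with the highest level per kb there, ran from 134.4 over 172.7 to 297.4 CPM in 8 p150neg and from 148.1 over 177 to 186.3 CPM in 7 p150pos cerebella (log2 fold change 0.03 ± 0.15). Cyp4f14, lower in p150neg liver, gave 0.34 ± 0.19 in cerebellum (adjusted p = 0.612). Cyp1b1 gave 1.10 ± 0.51 (adjusted p = 0.512).

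Cyp2f2 did not pass the filter on low counts in cerebellum, yet its groups did not overlap there. The 8 p150neg cerebella held 0, 6, 0, 0, 2, 0, 1 and 0 counts, and the 7 p150pos cerebella held 60, 59, 6, 17, 24, 12 and 13 counts. In CPM these are at most 1.10 in p150neg and 1.62, 5.44 and 14.7 (lowest, median, highest) in p150pos animals. Without the filter Cyp2f2 was called at -4.48 ± 0.86 (adjusted p = 0.00589), where 0.474% of 30607 genes were called and 0.121% had every p150neg library below every p150pos library. This gene was singled out after its values were seen. Alb overlapped between the groups in cerebellum (0 to 98.6 CPM in p150neg and 0 to 21.1 CPM in p150pos), and Cyp2e1 reached at most 4.91 CPM. That highest Cyp2e1 value was in p150pos animal 4, which held 60 Cyp2f2 counts (12.8 CPM). The highest Cyp2f2 level, 14.7 CPM, was in p150pos animal 5, where Cyp2e1 stood at 0.749 CPM. A part of liver RNA in these values was not tested.

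Levels between members can be compared only per kb of exon, and the length used joins all annotated exons of a gene. In p150pos livers the highest were Cyp2e1 at 1994, Cyp3a11 at 1100, Cyp2c70 at 729.6, Cyp2c29 at 642.4 and Cyp2d10 at 600.8 CPM per kb (mean of 7). In CPM, Cyp3a11 was above Cyp2e1 (means of 5602 and 4304). Their exon lengths were 5093 and 2158 bases, so the order of these 2 genes depends on the length used. The kidney order was led by Cyp2j5 at 709.3, Cyp4a10 at 472.6, Cyp4a14 at 329.3, Cyp2d26 at 193.5 and Cyp4a31 at 164 CPM per kb. Cerebellum had Cyp2j9 at 50.3 and Cyp2d22 at 19.7 CPM per kb. Across the 60 members, 36 were higher in every p150pos liver than in every p150pos kidney, 6 were lower and 18 overlapped. As the members were chosen on counts in these tissues, their levels are a description.

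**Figure D5:**
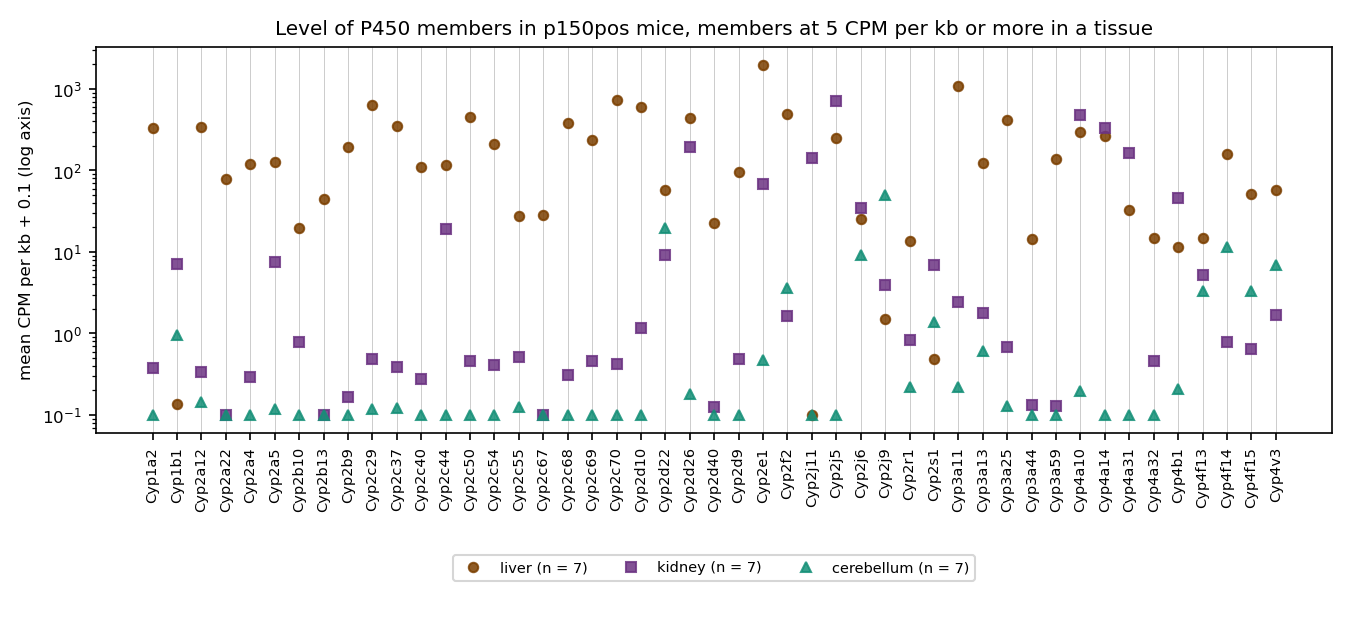
Mean level in p150pos mice (y axis, CPM per kb of exon plus 0.1, log scale) in liver, kidney and cerebellum for the 47 members at 5 CPM per kb or more in at least 1 tissue. Cyp2c44, at 19.0 CPM per kb, is the highest Cyp2c gene in kidney, and Cyp2j11 is at the floor of the axis in liver and cerebellum.

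Promoter letters were counted for 5 short motifs on both strands of the 300-base promoters, as a description. The HNF4 core AGTCCA stood in 32.7% of the 55 member promoters and in 14.2% of all promoters, and in those of 6 of 14 lower members and 10 of 25 other tested members. The promoter of Cyp1a2, shown because this gene had the second-largest fold change, holds it on each strand in the window chr9:57683636-57683775 (minus strand, capitals for both matches).
Cyp1a2: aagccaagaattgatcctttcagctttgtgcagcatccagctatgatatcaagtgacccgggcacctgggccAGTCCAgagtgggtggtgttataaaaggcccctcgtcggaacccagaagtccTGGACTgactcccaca
The C/EBP motif TTGCNNAA stood in 29.1% of member promoters and 10.8% of all. It was in 5 of 14 lower members and 6 of 25 others. The HNF1 core GTTAAT stood in 14.5% and 7.1%, and in 5 of 14 lower members and 3 of 25 others. The AHR core GCGTG stood in 20.0% and 32.4%, in 5 of 14 lower members (Cyp2b10, Cyp2c68, Cyp2r1, Cyp4f14 and Cyp4v3) and 1 of 25 others, and was not found in the Cyp1a2 window. The STAT motif TTCNNNGAA stood in 5.45% and 8.3%, and in 1 of 14 lower members and 1 of 25 others. Motifs can overlap, close copies share them, and a match is not evidence of binding.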

How the data were processed

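The authors deposited whole-number read counts for each gene and library. Per the submitters' processing notes, the tools were FastQC 0.11.3, SAMtools 1.2, Picard 1.134, STAR 2.4.2a and HTSeq 0.4.1, and the build was GRCm38 (mm10). Annotation release and strand setting are not given in the sources used here, so overlapping and antisense genes cannot be told apart. All 46 columns matched a sample by name, and 6 repeated identifiers with identical counts were used once. The members, gene lists and the 5 libraries left out were chosen with earlier results of these data known.

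Each tissue was fitted on its own with edgeR 4.0.16 in R 4.3.3 (TMM, filterByExpr with a minimum count of 10 and total of 15, quasi-likelihood test), with Benjamini-Hochberg adjustment over all genes tested and calls at an adjusted p under 0.05. Log2 fold changes are p150neg over p150pos, with a standard error from the F statistic. The interaction fit took liver and kidney together. Animal numbers pair these libraries because both tissues came from 1 animal; over 11 animals, the correlation of the paired libraries' deviations lay between -0.0167 and 0.247. The code was tested on simulated data. Alternatives were RLE size factors, DESeq2 1.42.0, limma 3.58.1 (voom), other filters, robust dispersion, Xist as a covariate, the identifier prefix as a block, all labelled libraries, libraries over 1 M counts and leaving out each library.

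Exon lengths, positions and coding sequences came from GENCODE M21 and were aligned with Biopython 1.88, and promoters came from RefSeq (GRCm38.p6). The text names every called member, the member of each subfamily with the highest level per kb, up to 5 members of the interaction and up to 5 called genes per list. It gives library values for the called members with the smallest adjusted p, at most 2 per subfamily. Other names were chosen after their values were seen.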

Additional observations from a re-analysis of the deposited data

Results flagged for a closer look

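In the livers, 30 groups of 7 libraries were screened for a library far from the others, and chance gives about 1 in 20. Cyp1a2 in the p150neg group had 1 high library, animal 9 at 103.5 CPM, with the next at 49.3 CPM. Cyp2r1 in the p150pos group had 1 high library, animal 12 at 46.8 CPM, with the next at 29.6 CPM. Both called differences held without these libraries.

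The genotype effect on Cyp4v3 differed between liver and kidney by -2.16 on the log2 scale in the interaction test. This call was lost with the animal as a block, a fit that kept only the animals with both tissues.

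Of the 5 libraries left out for their organ identity, 4 held members far above every library that was used under the same label. The library labelled liver of animal 2 held Cyp2j11 at 120.1 CPM (0 in the livers used) and Cyp1b1 at 53.6 CPM (at most 3.76). The library labelled kidney of animal 2 held Cyp2s1 at 985.8 CPM (at most 67.0) and Cyp3a13 at 160.2 CPM (at most 14.5). The library labelled kidney of animal 11 held Cyp4f14 at 2627 CPM (at most 4.72) and Cyp3a13 at 2590 CPM. The library labelled kidney of animal 12 held Cyp3a13 at 2302 CPM and Cyp3a11 at 1238 CPM (at most 49.2). In the left-out cerebellum library (animal 7), 0 members were over 10 times the highest value of the cerebella used.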

How the results depend on the processing

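The count of members lower in liver was 17 and ran from 12 (all labelled libraries) to 22 (identifier prefix as a block, which added Cyp2a5, Cyp2c50, Cyp2c55, Cyp2d10 and Cyp2e1), and from 14 to 21 on leaving out each library. The calls over all genes moved too. With the prefix block, lower calls went from 469 to 591 and higher calls from 683 to 823 of 9843 genes. On leaving out each library, lower calls over all genes ran from 352 to 651. Of the 18 called members, 10 were called under all 24 alternatives (Cyp1a2, Cyp2b10, Cyp2c40, Cyp2c44, Cyp2c69, Cyp2f2, Cyp2g1, Cyp2j5, Cyp2r1 and Cyp4f14), and 0 changed direction. With all labelled libraries, which adds 1 liver library, the calls of Cyp2a4, Cyp2c68, Cyp2c70, Cyp2d40, Cyp3a13 and Cyp4v3 were lost. Cyp2u1 was lost with voom (adjusted p = 0.122) and Cyp4f13 without a filter (adjusted p = 0.0598); the cause was not tested. The count of members higher in liver was 0 with all labelled libraries, 2 without a filter (Cyp4f18 added), and 1 to 2 on leaving out each library (Cyp4f16 added without p150pos animal 13). The kidney count was 1 with DESeq2 (Cyp2a5), and the cerebellum count 1 without a filter (Cyp2f2); the causes were not tested. With the animal as a replicate block in the paired liver and kidney fit, 0 members were called in the interaction. With all labelled libraries the 1 member called there was Cyp2c69, not Cyp4v3. Over all genes, counts lower and higher were 469 and 683 in liver (299 and 441 with all labelled libraries), and 37 and 46 in kidney (0 and 1 with all labelled libraries, 159 and 147 with DESeq2, 50 and 91 without a filter, 17 and 15 with the prefix block, 92 and 119 without libraries under 1 M counts, which leaves out p150neg animal 3, and down to 13 and 21 without p150neg animal 8). They were 36 and 95 in cerebellum (115 and 175 with DESeq2, 34 and 28 with voom, 22 and 88 with the Xist covariate, 64 and 115 without libraries under 1 M counts, and down to 18 and 84 without p150pos animal 4). For the interaction they were 85 and 110 (43 and 74 with the replicate block, 31 and 40 with all labelled libraries). Scaling by TMM in place of library totals left the mean CPM of Cyp1a2, Cyp2c69, Cyp2c40, Cyp4f14, Cyp3a13 and Cyp2e1 within 1 SD. Depth limits the low members: Cyp2g1, Cyp2u1 and Cyp2b10 rest on few counts per p150neg library. Of these, Cyp2g1 became a member only through its counts in p150pos livers.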
